A study of Homo sapiens with 17 samples.

Results

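H3K27ac, the acetylation of lysine 27 of histone H3, was profiled in H1 cells carrying the shRNA shHNRNPU#2 and compared with H1 cells carrying shLUC. The comparison took in 4 of the 17 CUT&Tag libraries of the series, with 2 repeats per group, chosen as the summit lists that the deposited files name H3K27ac under those shRNAs. H1 is an established human pluripotent stem cell line, which was grown in mTeSR1 medium on Matrigel. All 4 cultures received shRNA virus packaged in 293T cells and were selected with puromycin, and they differed in whether the shRNA was directed at HNRNPU or at luciferase. The labels do not say whether the repeats came from separate transductions, or whether the selected cells were clones, so every p-value below measures only the spread between these libraries. In CUT&Tag, an antibody directs the Tn5 transposase to cut chromatin beside the epitope, and a summit is the base of highest signal in a called peak.

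H3K27ac marks active promoters and enhancers. It is written by the acetyltransferases EP300 and CREBBP, removed by histone deacetylases such as HDAC2, and read by bromodomain proteins. HNRNPU, also known as SAF-A, is an abundant nuclear RNA-binding protein that associates with chromatin and with the insoluble nuclear scaffold. Pluripotent cells carry this mark at the genes of their transcription factor network, and at housekeeping genes that are active in every cell.

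For both shLUC H3K27ac libraries the sample titles read H3K4me1, while the file names and the peak names inside the files read H3K27ac, and the names in the files were used. Of the 20000 highest-scoring summits of each list, 24.5% and 27.2% lay within 1000 bp of a protein-coding gene start in these shLUC libraries, against 25.2% and 23.9% in the shHNRNPU#2 libraries. In the pair of shLUC libraries titled H3K27ac but named H3K4me1 in the files, the share was 7.47% and 7.16%. Their lists overlapped the shHNRNPU#2 H3K27ac lists by 24.5% to 25.8%, against 50.6% to 55.5% for the libraries used here (summits within 250 bp, mean of both directions). The choice therefore follows the file names, and what the titles would give instead is stated in the closing section.

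The lists held 75264 and 85142 summits for shHNRNPU#2 and 62449 and 90914 for shLUC. Read depth was unknown, and no interval based on depth could be given. Scores depend on depth, so each list was cut to its 20000 highest summits and every summit was described by its position on its own list, where position 1 is the strongest. The score at position 20000 was 7.06 and 8.01 for shHNRNPU#2 and 6.16 and 9.4 for shLUC, and shLUC repeat 2 was the longest list of the 4. A position is relative to the rest of the same list, so a change in H3K27ac over the whole genome would not be visible.

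The promoter windows below belong to genes whose H3K27ac position shifted in the same direction in both repeats and are shown so that the shifts can be read beside the sequence. Each holds the 250 bases before the listed start, 5′ to 3′ in the direction of transcription, from RefSeq on GRCh38.p14. Capitals mark matches on either strand to 8 motifs: TATAAA (the TATA box), CCAAT (the CCAAT box), GGGCGG (the GC box), CACGTG (the E box), TGACGTCA (the cyclic AMP response element), CCGGAAG (the ETS core), the palindromic NRF1 motif and ATTTGCAT (the octamer). A match is a description of letters anywhere in the window and not a bound site. Adjoining or overlapping matches merge into 1 run of capitals. The first 3 genes stood higher on the shHNRNPU#2 lists and the last 3 stood lower.
H4C16, chr12:14771132-14771381, minus strand: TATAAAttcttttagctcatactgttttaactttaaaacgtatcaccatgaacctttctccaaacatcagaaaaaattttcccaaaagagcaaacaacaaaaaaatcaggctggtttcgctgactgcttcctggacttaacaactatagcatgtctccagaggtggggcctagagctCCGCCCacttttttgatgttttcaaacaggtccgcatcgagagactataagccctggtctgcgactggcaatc
HDAC2, chr6:113971149-113971398, minus strand: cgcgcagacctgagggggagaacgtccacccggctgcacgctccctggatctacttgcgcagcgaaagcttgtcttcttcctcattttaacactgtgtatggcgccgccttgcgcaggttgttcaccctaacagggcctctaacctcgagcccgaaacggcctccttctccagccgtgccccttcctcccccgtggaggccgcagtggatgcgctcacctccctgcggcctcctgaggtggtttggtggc
RPL14, chr3:40457089-40457338, plus strand: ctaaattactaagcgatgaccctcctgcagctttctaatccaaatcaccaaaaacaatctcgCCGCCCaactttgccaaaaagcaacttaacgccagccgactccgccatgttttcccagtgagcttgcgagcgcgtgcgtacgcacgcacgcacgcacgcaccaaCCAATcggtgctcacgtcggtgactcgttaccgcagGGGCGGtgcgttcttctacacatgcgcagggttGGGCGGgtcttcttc
LEO1, chr15:51971779-51972028, minus strand: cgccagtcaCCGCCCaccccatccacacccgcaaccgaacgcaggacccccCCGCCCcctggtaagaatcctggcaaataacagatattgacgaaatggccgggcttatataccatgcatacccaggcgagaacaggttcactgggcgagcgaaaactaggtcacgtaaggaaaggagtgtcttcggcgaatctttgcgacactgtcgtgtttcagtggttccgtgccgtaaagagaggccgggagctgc
HTD2, chr3:58306270-58306519, plus strand: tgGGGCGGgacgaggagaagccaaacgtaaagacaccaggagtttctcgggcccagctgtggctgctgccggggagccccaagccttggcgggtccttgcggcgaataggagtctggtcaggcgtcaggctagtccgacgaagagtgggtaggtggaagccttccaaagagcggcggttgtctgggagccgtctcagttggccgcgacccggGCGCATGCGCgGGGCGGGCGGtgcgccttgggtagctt
IFT74, chr9:26956162-26956411, plus strand: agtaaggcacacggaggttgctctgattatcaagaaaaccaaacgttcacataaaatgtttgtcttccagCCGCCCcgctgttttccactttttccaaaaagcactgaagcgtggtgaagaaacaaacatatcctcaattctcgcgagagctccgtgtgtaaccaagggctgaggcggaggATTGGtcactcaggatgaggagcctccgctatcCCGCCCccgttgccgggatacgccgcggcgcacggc

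The windows of H4C16 and RPL14 differed from that of HDAC2 in that HDAC2 held none of the 8 motifs. H4C16, a histone H4 gene, held TATAAA and a GC box at a GC content of 41.6%. The TATAAA match was at the first bases of the window, farthest from the start. RPL14 held 1 CCAAT and 3 GC boxes, LEO1 held 2 GC boxes, and IFT74 held 1 CCAAT and 2 GC boxes. HTD2 held 3 GC boxes, a pair of which overlapped, and the NRF1 motif.

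The motifs were also counted over all gene-start sites that shifted. A GC box stood in 65.1% of 109 windows at higher sites, 73.2% of 224 windows at lower sites, 67.7% of 6104 windows at any H3K27ac gene-start site and 53.7% of all 22198 windows. CCAAT stood in 31.2%, 40.2%, 36.2% and 32.7% of the same windows. The ETS core stood in 14.7%, 21.9%, 17.3% and 10.7%, and TATAAA, anywhere in the window, in 5.5%, 2.23%, 4.7% and 9.01%. The E box was present in 7.34%, 7.14%, 8.81% and 7.37%, and the cyclic AMP element in 1.83%, 3.57%, 3.21% and 2.01%. The NRF1 motif was found in 1.83%, 3.12%, 2.26% and 1.28%. The octamer was found in 0, 1, 83 and 352 windows, which is 0%, 0.446%, 1.36% and 1.59%. Median GC content was 63.2% at higher, 64.8% at lower and 64.8% at all gene-start sites, against 62% over all windows. These shares were not tested, since the sites were chosen by the same libraries.

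The H3K27ac landscape as a whole was close in both groups. Overlap was 54.6% between the shHNRNPU#2 repeats and 55.1% between the shLUC repeats, and 50.6% to 55.5% between the groups. The mean within groups exceeded the mean between groups by 1.78 percentage points (54.9% against 53.1%). By an exact permutation test over the 3 ways to pair the libraries (one-sided) p was 0.333, which is the smallest value this design allows. The share at gene starts was 24.6% ± 0.926 (SD, n = 2) in shHNRNPU#2 and 25.9% ± 1.86 (SD, n = 2) in shLUC, with a p of 0.667 by an exact permutation test (two-sided). The share within 500 bp of an HNRNPU site was 34.8% ± 0.923 (SD, n = 2) and 36.1% ± 2.36 (SD, n = 2), with the same exact permutation p of 0.667. Neither difference exceeded the spread between repeats, and 6 assignments of the libraries cannot give a two-sided p under 0.333. Without shLUC repeat 2 both shares turned the other way, to 0.03 and 0.398 percentage points above shLUC repeat 1.

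Summits of the 4 lists were chained into 40505 sites, of which 7996 were on all 4 lists and 18583 on 1 list. The 5 strongest genes stood near the top of all 4 lists. FLCN, the gene for folliculin, stood at positions 8 and 11 with shHNRNPU#2 and 5 and 6 with shLUC. ZNF300 stood at 4 and 6 against 15 and 5, LSR at 7 and 12 against 8 and 4, and the start shared by EWSR1 and RHBDD3 at 10 and 9 against 4 and 7. The positions of the groups overlapped at ZNF300 and LSR.

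The gene targeted by the shRNA cannot be checked at the RNA level with these libraries. H3K27ac at the HNRNPU start stood at positions 3125 and 15268 in shHNRNPU#2 and 4987 and 4097 in shLUC. The shHNRNPU#2 repeats lay on either side of both shLUC libraries, with a log2 shift of −0.61 ± 0.97 (SE) and an adjusted p of 0.848 by limma. The shHNRNPU#1 libraries stood at position 5429 in one and were absent from the top 20000 in the other.

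Tested site by site with limma, 1 of 40505 sites stood higher and 3 stood lower in shHNRNPU#2 at an adjusted p under 0.05, which is 0.00247% and 0.00741% of the sites tested. At an unadjusted p under 0.05 there were 656. The fit shares the spread between repeats over sites of like strength. The SE and p at a site therefore do not rest on its own repeats alone. A log2 shift is the difference of mean −log2 list position, shHNRNPU#2 minus shLUC, so that a shift of 1 is a position 2 times nearer the top. In simulated data this fit recovered 0 of 50 sites with a shift of 3, so shifts of that size may be missed here. The simulated repeats were centred on the set shift, so such counts place the cutoff of the fit and do not estimate its power. With a replicate block 0 sites were called higher and 2 lower, and without the trend and robust options, or on a percentile scale, none of the 4 remained called.

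The called site with the largest shift that kept its positions in a wider window lay at chr19:17655157, inside UNC13A, whose product primes synaptic vesicles, and 33197 bp from its nearest listed start. It stood at positions 89 and 134 in shLUC and 4847 and 3442 in shHNRNPU#2, so the groups were far apart. The log2 shift was −5.23 ± 1.0 (SE, limma adjusted p = 0.00375). Positions were the same when the window was opened from 500 to 2500 bp. H3K4me1, measured in separate libraries, stood at positions 16166 and 6461 in shLUC and was absent from the top 20000 in both shHNRNPU#2 libraries. The shHNRNPU#1 H3K27ac libraries, set against the same controls, stood at 1726 and 1469.

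The called site that stood higher lay at chr21:8464736, far from any listed protein-coding gene, at 635104 bp from the nearest start (LOC102723475). It stood at positions 6 and 4 in shHNRNPU#2 and 49 and 101 in shLUC, a log2 shift of 3.84 ± 0.81 (SE, limma adjusted p = 0.0258). The short arm of chromosome 21 carries repeated sequence with near-identical copies, and how reads were shared between copies is not given in the sources used here, so this value is uncertain. The shHNRNPU#1 libraries stood at 9 and 11.

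Both other called sites had a strong summit within 2500 bp in every library. The ACTB site at chr7:5532088, near the gene of beta-actin, stood at 220 and 559 in shLUC and was absent from both full shHNRNPU#2 lists, with a limma adjusted p of 0.00146. Within 2500 bp, however, the strongest summits stood at 766 and 3002 in shHNRNPU#2. At the ATP5F1A start, the gene of the ATP synthase alpha subunit, shLUC stood at 356 and 1053 and shHNRNPU#2 was absent in repeat 1 and at 19363 in repeat 2 (limma adjusted p = 0.0283). Within 2500 bp shHNRNPU#2 stood at 3270 and 2046, which left the groups apart by less than the 2 times required below. Within 250 bp the log2 shift was 0.02, against −5.01 within 500 bp.

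**Figure D1:**
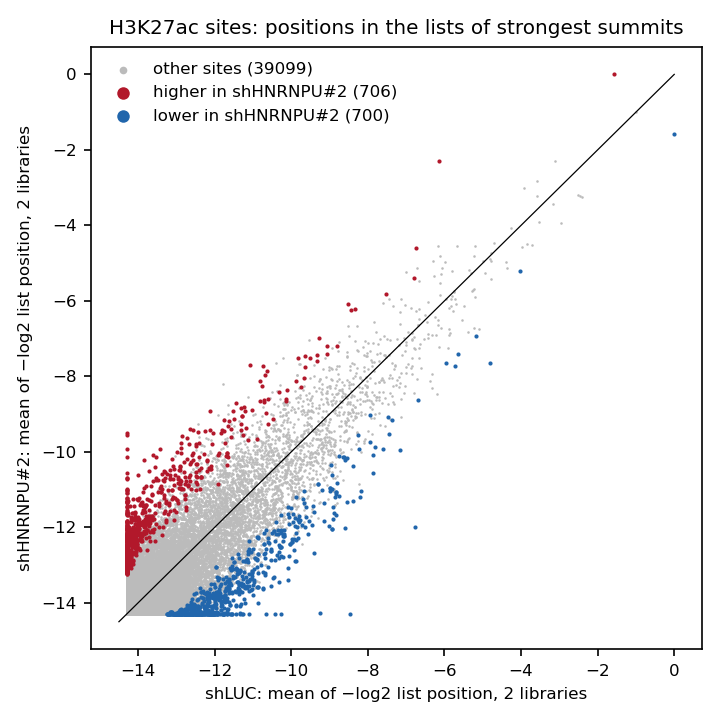
Mean −log2 list position of every H3K27ac site in the 2 shLUC libraries (horizontal axis) and the 2 shHNRNPU#2 libraries (vertical axis), where 0 is the strongest position and sites absent from a list take the position after its end. Red points are the 706 sites higher and blue points the 700 sites lower in both shHNRNPU#2 repeats, and the line marks equal positions.

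A site was called shifted when both shHNRNPU#2 positions were at least 2 times nearer to, or 2 times farther from, the top than both shLUC positions. This described 706 sites as higher and 700 as lower, or 1.74% and 1.73% of all sites. With 1 library left in a group no agreeing repeat is needed, so more sites pass in the direction where that group is stronger. Without shHNRNPU#2 repeat 1 or 2, 3066 and 3259 sites were higher against 1568 and 1606 lower. Without shLUC repeat 1 or 2, 1333 and 1648 were higher against 2875 and 3446 lower. This turn of the balance follows from the rule and does not tell which library carries a shift. Of the higher sites 257 were absent from both shLUC top lists. For 106 of these a weaker summit was deposited in both shLUC lists, for 87 in one, and for 64 in neither. Of the lower sites 214 were absent from both shHNRNPU#2 top lists, with a weaker summit in both for 144, in one for 41 and in neither for 29. Within 2500 bp, 671 higher and 642 lower sites were still shifted. The site nearest ADI1 was the last inside the limit among the higher sites, at 2.001 times, and the site nearest GUK1 the first outside, at 1.999 times. Among the lower sites these were XPO1 at 2.001 and RXRA at 1.998 times.

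The sites named next are the ones with the widest gap between the groups, per direction 7 at gene starts and 5 farther than 5000 bp from any, with no opposite shift within 2000 bp. Their H3K27ac values chose them and are a description without a test. Among the 23 such sites reported, 16 were still shifted within 2500 bp.

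Of the 6 gene-start sites reported as higher, 3 kept the shift in the wider window. RBM43, which encodes an RNA-binding motif protein, stood at 979 and 635 in shHNRNPU#2 and 6010 and 7467 in shLUC (chr2:151261465). NRF1, a transcription factor for nuclear genes of mitochondrial function, stood at 3222 and 2408, against absent and 15584 (chr7:129611505). These gene-start positions were each at least 4 times apart between the groups, and no shHNRNPU#2 library overlapped a shLUC library.

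H4C16 stood at 4350 and 2354 and was absent from both shLUC top lists (chr12:14771154, 23 bp from the start printed above). Histone H4 genes have similar copies, so shared reads could affect this value. At the other 3 higher gene starts the shift was lost in the wider window. PRORP, the catalytic subunit of mitochondrial RNase P, stood at 692 and 749 with no shLUC summit within 500 bp, but within 2500 bp shLUC stood at 718 and 921. ORMDL1, a regulator of sphingolipid synthesis, stood at 1648 and 342, and within 2500 bp shLUC stood at 669 and 297. HAPSTR1 stood at 2451 and 4044, and within 2500 bp shLUC stood at 4927 and 3680.

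Of the 7 gene-start sites that stood lower, LEO1, HTD2, NBN and IFT74 kept the shift. LEO1, a subunit of the PAF1 complex of transcription elongation, stood at 11490 and 10017 in shHNRNPU#2 and 895 and 1342 in shLUC (chr15:51971644, 134 bp from the start printed above). HTD2, a dehydratase of mitochondrial fatty acid synthesis, stood at 15022 and 18168 against 1686 and 2037 (chr3:58306396), within the printed window and also inside RPP14. NBN, a member of the MRE11 DNA repair complex, stood at 11263 and 11119 against 1543 and 1041 (chr8:89984523). All these sites were weak but present in shHNRNPU#2.

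IFT74, a protein of intraflagellar transport, was absent from both shHNRNPU#2 top lists, at 29652 and 20045 of the full lists, and stood at 3355 and 2634 in shLUC (chr9:26956533). UBE2D3, a ubiquitin-conjugating enzyme, was absent against 1038 and 1795, and within 2500 bp the shHNRNPU#2 summits stood at 3483 and 1476. MDM2, the ubiquitin ligase of p53, was absent against 1503 and 3209, and within 2500 bp shHNRNPU#2 stood at 7542 and 6225. MDM2 thus remained lower in both repeats, with the nearest pair of libraries less than 2 times apart. For RBM43, NRF1 and NBN the reference gave both gene ends without a strand, so these sites lay beside an end of the gene.

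**Figure D2:**
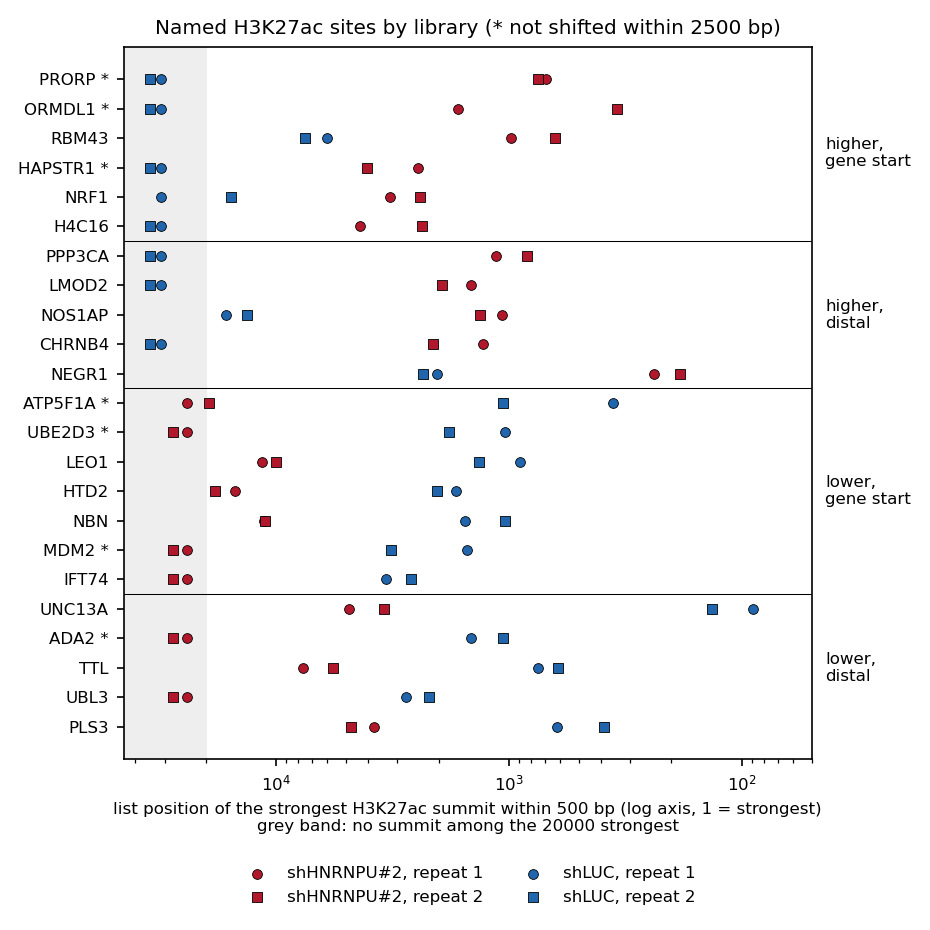
List position of the strongest H3K27ac summit within 500 bp of each of the 23 named sites, on a log axis with the strongest positions to the right, for the 2 shHNRNPU#2 (red) and 2 shLUC (blue) libraries. Points in the grey band had no summit among the 20000 strongest, and the 7 sites with an asterisk were not shifted within 2500 bp.

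The 5 distal sites that stood higher all kept the shift in the wider window. They were named by the nearest gene start, which need not be the gene they act on. The site inside PPP3CA, the catalytic subunit of calcineurin, stood at 1130 and 837 and had no shLUC summit anywhere on the full lists (chr4:101169401). H3K4me1 was among the strongest of its lists there, at 10 and 38 in shHNRNPU#2 and 73 and 90 in shLUC. Neither shHNRNPU#1 H3K27ac library had it in the top 20000. Among the 20000 strongest summits, H3K27ac was thus listed at this strongly H3K4me1-marked site in shHNRNPU#2 and in neither other group.

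The site nearest LMOD2, an actin-nucleating protein of muscle, lay inside WASL, an activator of the Arp2/3 complex (chr7:123692612). It stood at 1448 and 1924 in shHNRNPU#2 and at 20734 and 30759 of the full shLUC lists. H3K4me1 shifted with it, at 236 and 105 in shHNRNPU#2 against 14412 and 9991 in shLUC. The shHNRNPU#1 H3K27ac libraries stood at 736 and 430. At this locus both marks were higher on every shHNRNPU#2 list than on any shLUC list.

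NEGR1, a neuronal cell adhesion gene, was nearest to a site 616601 bp away that stood at 237 and 183 against 2036 and 2332 (chr1:72899140). H3K4me1 was absent there from all lists but shHNRNPU#2 repeat 1, where it stood at 19950. The site inside NOS1AP, an adaptor of neuronal nitric oxide synthase, stood at 1067 and 1325 against 16296 and 13245 (chr1:162230220), while H3K4me1 stood at 1121 and 934 against 1589 and 690. The site nearest CHRNB4, a nicotinic receptor subunit, stood at 1285 and 2112 and was absent from both shLUC top lists (chr15:78709513). H3K4me1 there stood at 354 and 79 against 226 and 73, so its groups overlapped.

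Of the 5 distal sites that stood lower, UNC13A is given above. The site inside TTL, the tubulin tyrosine ligase, stood at 7607 and 5660 against 746 and 612 in shLUC (chr2:112509441). The site inside UBL3 was absent from both full shHNRNPU#2 lists and stood at 2745 and 2206 in shLUC (chr13:29841677), while H3K4me1 stood at 2453 and 2471 against 4359 and 3681. The site nearest PLS3, an actin-bundling protein, stood at 3800 and 4746 against 620 and 390 (chrX:115732629). The shHNRNPU#1 libraries stood there at 476 and 800, on the level of shLUC. Within 250 bp of the centre the log2 shift at PLS3 turned, from −3.11 to 1.2.

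The site inside ADA2, an adenosine deaminase, was absent against 1446 and 1057 (chr22:17199431), but within 2500 bp shHNRNPU#2 stood at 966 and 1204, so the groups overlapped in the wider window. H3K4me1 was absent from all 4 top lists at ADA2, TTL and PLS3. Among these 5 lower sites it was on both shLUC lists at UNC13A and UBL3.

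**Figure D3:**
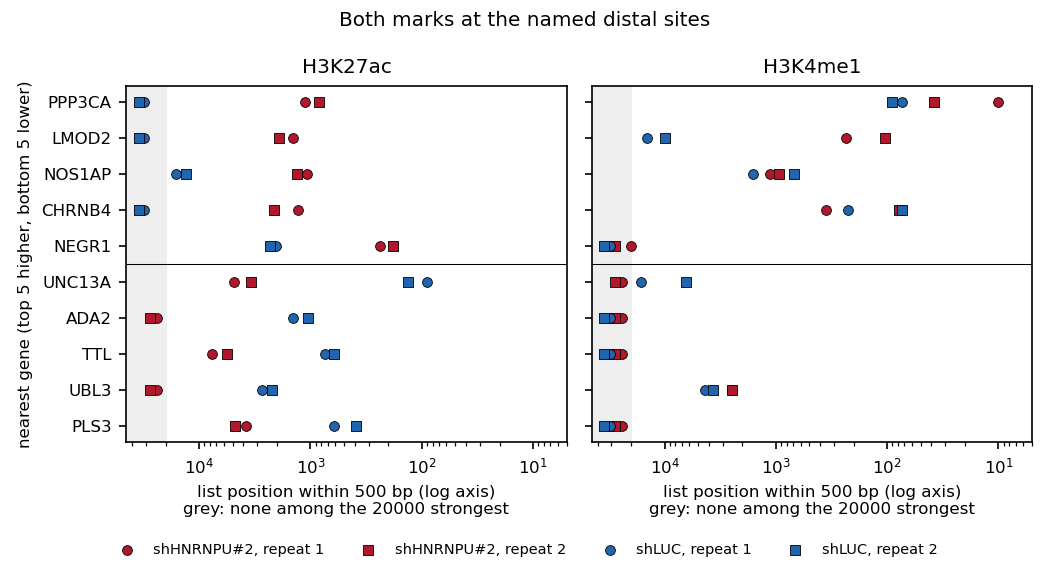
List position of the strongest summit within 500 bp of the 10 named distal sites for H3K27ac (left) and H3K4me1 (right), on log axes with the strongest positions to the right. The 5 upper sites stood higher and the 5 lower ones lower for H3K27ac in shHNRNPU#2 (red) than in shLUC (blue), and H3K4me1 was apart in the same direction by at least 2 times at LMOD2 alone among sites on all 4 H3K4me1 lists.

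H3K4me1 is a measure that the choice of sites did not use. Across all 40505 H3K27ac sites it was shifted higher at 193 and lower at 150, or 0.476% and 0.37%. Of the 706 sites with higher H3K27ac, 11 had higher H3K4me1 (1.56%) and 5 lower (0.708%). Of the 700 sites with lower H3K27ac, 5 had lower H3K4me1 (0.714%) and 2 higher (0.286%). An H3K4me1 top summit in any of the 4 libraries was present at 404 of the higher and 205 of the lower sites, and the other sites could not shift by this measure. Among the sites with one, H3K4me1 was higher at 2.72% and lower at 1.24% where H3K27ac was higher, and higher at 0.976% and lower at 2.44% where H3K27ac was lower, beside 1.7% and 1.32% of all 11330 such sites.

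The sites at which both marks moved together included several near genes of known function. TMEM123 carried a site at chr11:102438963 that stood at 992 and 866 against 5365 and 6134 for H3K27ac, and at 977 and 1154 against 10569 and 16212 for H3K4me1. BIRC5, which encodes survivin, an inhibitor of apoptosis, carried a site at 1969 and 3902 against 10354 and absent for H3K27ac and 427 and 1251 against 2701 and 2508 for H3K4me1 (chr17:78220048). A site 20635 bp from CDK1, the kinase of entry into mitosis, stood at 8234 and 7242 and was absent from both shLUC top lists (chr10:60757696). H3K4me1 there stood at 2934 and 3653 against 14744 and 14935. The site 3455 bp from a PRMT1 start, an arginine methyltransferase, stood at 1819 and 8911 against absent for H3K27ac and 110 and 97 against 261 and 320 for H3K4me1. The others were nearest TRIM13, AFAP1L2, TMEFF2, DAPL1, TMEM182 and SPECC1, and the last of these was not shifted in H3K27ac within 2500 bp.

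Both marks were lower at 5 sites. NAB1, a corepressor of EGR factors, carried a site absent from both shHNRNPU#2 full lists for H3K27ac that stood at 4847 and 8631 in shLUC (chr2:190680503). H3K4me1 stood there at 547 and 731 against 121 and 138. CREB3L1, a membrane-bound transcription factor, carried a site 4457 bp from its start, absent against 8325 and 6798 for H3K27ac and at 1803 and 2370 against 109 and 315 for H3K4me1. COLGALT1, a collagen galactosyltransferase, carried a site absent against 4293 and 3266 for H3K27ac and at 6092 and 13805 against 1306 and 1558 for H3K4me1 (chr19:17579973). TLE2, a Groucho corepressor, and PRSS58 were nearest to the others. The COLGALT1 and TLE2 sites lie on chromosome 19. So do the UNC13A site, which is not among these 5, and the PRMT1 site, where both marks were higher (chr19:49680726).

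The shifted sites were next described by where they lay and by which other antibodies had summits there, as shares without a test. Gene starts held 19.8% of the higher sites, 39.6% of the lower sites and 19.9% of all sites. The order turned without shLUC repeat 2, when 29.2% of the higher and 25% of the lower sites lay at gene starts. Leaving out a library also changes which sites pass, here 1648 higher and 3446 lower ones. Without any other single library the higher sites held 17.6% to 22.8% and the lower sites 36.1% to 42.3%. The shares of summits at gene starts in each library, given above, carry the same library. Its part in the difference was not tested.

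H3K4me1 stood at a larger share of the 534 distal sites that were higher than of the 381 that were lower. A top summit of H3K4me1 in any of its 4 libraries lay within 500 bp of 65.9% of the higher, 40.2% of the lower and 30.5% of all distal sites. The strongest of the 4 H3K27ac positions had a median of 3240 at the higher and 3470 at the lower distal sites, against 11100 at all. The limit of 2 times itself picks strong positions, so all distal sites are a weaker set to compare with. Leaving out each library in turn, H3K4me1 was found at 49.5% to 63.1% of the higher and 32.8% to 46.3% of the lower distal sites, and the higher sites had the larger share in all 4 cases. With no shHNRNPU#2 repeat 1 the difference was 51.1% against 46.3%, and with no repeat 2 it was 49.5% against 43.8%. At gene starts the shares were 25%, 12.6% and 17.6%.

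HNRNPU sites, taken from untransfected cells, lay within 500 bp of 30.9% of the higher and 34.4% of the lower distal sites, against 15.8% of all. At gene starts they lay near 73.6%, 73.3% and 66.1%. Shifted sites of both directions were stronger than the rest, with a median best position of 3200 and 3150 against 10100, and the part of this in the HNRNPU share was not tested. The order of the directions at distal sites turned with the library left out, from 21.8% against 37.8% without shHNRNPU#2 repeat 2 to 36.1% against 22.4% without shLUC repeat 2. It also turned without shLUC repeat 1 (34.3% against 26.6%), but not without shHNRNPU#2 repeat 1 (22.2% against 40.5%). Leaving out a library lets sites pass on the 1 list left in its group, so these orders do not tell which library carries the difference. POLIIS2P, an antibody named so in the labels, had a top summit in both shLUC libraries at 47.1% of the higher and 58.1% of the lower gene-start sites, against 49.9% of all. At distal sites the shares were 17.6%, 23.1% and 11.6%.

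**Figure D4:**
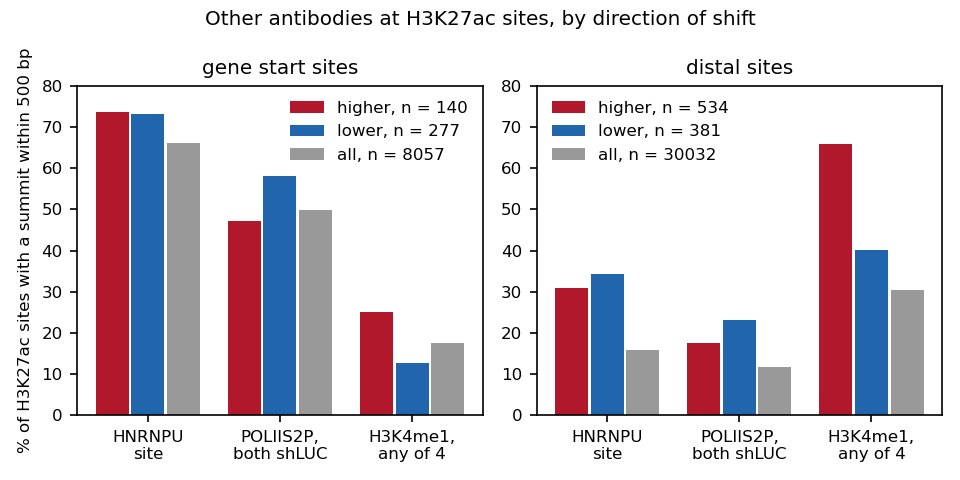
Percentage of H3K27ac sites with another antibody's summit within 500 bp, for sites higher (red) or lower (blue) in shHNRNPU#2 and for all sites (grey), at gene starts (left) and at distal sites (right). H3K4me1 stood at 65.9% of the higher distal sites against 40.2% of the lower ones, while the HNRNPU shares were 30.9% and 34.4%.

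Along the genome, the share of the 20000 summits on a chromosome did not overlap between the groups for 12 of 23 chromosomes, Y left out. It was higher in shHNRNPU#2 for 7 (30.4%) and lower for 5 (21.7%). The 5 lower ones were chromosomes 7, 11, 16, 19 and 21. Libraries in random order would be apart in this way with a probability of 0.333 per chromosome. The shares of a library depend on each other, so the count of 12 was not tested. Chromosome 19 held 4.63% and 4.69% of the summits in shHNRNPU#2 and 5.04% and 5.26% in shLUC, and 45 of its 1854 sites stood lower and 16 higher. Chromosome 16 held 3.37% and 3.45% against 3.67% and 3.9%, with 32 lower and 15 higher sites of 1489. Chromosome 18 held 2.21% and 2.4% against 2.09% and 1.96%, and chromosome 10 held 4.54% and 4.63% against 4.28% and 4.07%. These differences were a fraction of a percent of all summits. In shHNRNPU#1, chromosome 19 held 5.42% and 5.12% and chromosome 16 held 3.95% and 4.02%, none of them below shLUC repeat 1.

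At the level of genes, the strongest summit within 1000 bp of any start was taken for each of 20033 protein-coding genes, of which 7728 had one on at least 1 list. No gene passed an adjusted p of 0.05 by limma, the lowest value being 0.729, and 327 had an unadjusted p under 0.05. A total of 131 genes (1.7%) stood at least 2 times higher and 284 (3.67%) at least 2 times lower in both repeats, and 125 and 272 of them were still so within 2500 bp. The median log2 shift over all genes was −0.12. The medians and shifted counts of gene groups below are to be read against it and against these 1.7% and 3.67%. More genes had a top summit in shLUC repeat 2 (6027) than in shLUC repeat 1 (5369) or the shHNRNPU#2 libraries (5527 and 5251).

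Genes of pluripotency had top summits in part, and those of differentiated lineages had almost none. Of 17 core pluripotency genes in the reference, 9 had a top summit at a start, with a median log2 shift of 0.15. Of these 1 was shifted higher and 0 lower, beside 1.7% and 3.67% of all genes. L1TD1, an RNA-binding protein of human pluripotent cells, stood at 255 and 237 against 100 and 133, lower in both repeats but short of the limit. LIN28B, an inhibitor of let-7 processing, stood at 813 and 549 against 3022 and 1066, higher in both repeats but short of the limit. In shHNRNPU#1 LIN28B stood at 9983 and 9378, below both shLUC libraries. ZFP42 stood at 2935 and 842 against 2824 and 2076. PRDM14, a regulator of pluripotency, stood at 8622 and 8282 and was absent from both shLUC top lists, though the reference gave only the ends of this gene. POU5F1 was on the list of shLUC repeat 1 alone, at 18634. Within 2500 bp it was on all 4 lists, at 17634 and 9296 against 10747 and 3008, and the groups overlapped. SOX2 and NANOG had no top summit within 1000 bp of a start.

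Of 14 genes of the primed state, 9 were measured (median −0.23). Of these 0 were shifted higher and 1 lower, beside 1.7% and 3.67% of all genes. The one was SALL2, a zinc finger factor, which stood at 1674 and 3312 against 270 and 320 in shLUC. Within 2500 bp it stood at 968 and 663 against the same shLUC positions, still apart by at least 2 times. No member of the naive (12 genes), mesendoderm (15), neural (17) or fibroblast (11) lists had a top summit at a start in any library, within 1000 bp. Of 13 trophoblast and amnion genes KRT18 and KRT8, keratins of simple epithelia, had one in 1 and 2 libraries. Within 2500 bp both were on all 4 top lists, KRT18 at 5313 and 12328 against 17408 and 3900 in shLUC and KRT8 at 12060 and 18959 against 12591 and 16956, and the groups overlapped at both.

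The counts of signalling genes stand beside 1.7% of all genes shifted higher and 3.67% lower, and a median of −0.12. Of the 26 Nodal and BMP genes 13 were measured and 0 shifted, with a median of 0.1. ACVR2A, an activin receptor, stood at 1384 and 5378 against 3858 and 2856, SMAD4 at 4453 and 6331 against 9225 and 3522, and ACVR2B at 11498 and 3634 against 13953 and 7512. The groups overlapped at all 3. Of 31 WNT genes 9 were measured, with 1 shifted higher and 0 lower (median −0.14). This was APC, the scaffold of the beta-catenin destruction complex, at 1231 and 628 against 7221 and 2599. Of 27 FGF and ERK genes 16 were measured, with 1 higher and 0 lower (median −0.13). This was MAP2K1, the kinase MEK1, at 2086 and 7990 against 15996 and absent.

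Of 20 immediate early and MYC genes 7 were measured and 0 shifted, beside 1.7% higher and 3.67% lower of all genes. Their median of 0.45 was the highest of the lists with at least 3 measured members. KLF6 stood at 733 and 286 against 415 and 939, JUND at 2643 and 2384 against 940 and 1603, and FOS at 2881 and 610 against 2412 and 4063. Of 21 p53 targets 15 were measured and 0 shifted (median −0.16), with TP53I3 at 27 and 18 against 43 and 16, BAX at 1017 and 1330 against 1122 and 960, and CCNG1 at 759 and 1267 against 1864 and 616. MDM2 is a member of this list, and at the gene level it stood at 7542 and 6225 against 1503 and 3209, a log2 shift of −1.64 ± 0.96 (SE), short of the limit.

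Among 30 writers, erasers and readers of acetylation 22 were measured (median −0.17). Of these 2 were shifted higher and 0 lower, beside 1.7% and 3.67% of all genes. HDAC2, a class I histone deacetylase, stood at 17 and 35 in shHNRNPU#2 and 105 and 108 in shLUC, a log2 shift of 2.13 ± 0.75 (SE, limma adjusted p = 0.729). In shHNRNPU#1 it stood at 35 and 62. MORF4L1, a chromodomain subunit of the NuA4 acetyltransferase complex, stood at 922 and 2924 against absent and 6904. The other members shifted in neither direction, and EP300 stood at 899 and 1673 against 989 and 555.

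Of 47 genes for HNRNPU, other hnRNPs and the nuclear matrix 40 were measured, with 1 shifted in each direction and a median of −0.24. Over all genes 1.7% were shifted higher and 3.67% lower. HNRNPDL stood higher, at 1241 and 860 against 17714 and 3660. HNRNPF, a splicing regulator that binds G-rich RNA, stood lower, at 4829 and 5805 against 2276 and 2096. HNRNPA0 and SMC3, a cohesin subunit, stood near the top in all libraries, at 84 and 71 against 42 and 72, and 91 and 139 against 35 and 50.

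Of 92 gene symbols matched as cytosolic ribosomal proteins 81 were measured, with 4 shifted higher and 0 lower, beside 1.7% and 3.67% of all genes. The log2 shift was negative at 49 and positive at 32 (median −0.2), beside 4490 and 3238 of all 7728 genes. The symbols include paralogs that are not standard subunits and 3 measured readthrough genes, each with the same positions as a listed gene. Without these 3, 47 of 78 had a negative shift and 31 a positive one, and the 4 shifted members stayed. RPL14 stood at 993 and 1174 against 3609 and 4157, and RPL27 at 5345 and 5116 against 10943 and 13191. RPS27L stood at 368 and 416 against 2386 and 1009, and RPS12 at 4937 and 5047 against absent and 12400. RPS27L encodes a paralog of RPS27 rather than a standard subunit. The strongest member, RPL21, stood at 18 and 32 against 19 and 13. Among 20 housekeeping genes 16 were measured, with 1 higher and 1 lower (median −0.16). The higher one was ACTB, at 766 and 3002 against absent from both shLUC top lists. Within 2500 bp its order turned, with shLUC at 220 and 559, the nearest pair of libraries being less than 2 times apart. Those shLUC positions are the ones of the ACTB site called lower above, so this locus was counted in both directions. The lower gene was PGK1, a glycolytic enzyme, at 1791 and 3585 against 434 and 256.

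Across the lists the shifted members numbered at most 4, and no list member passed the test over all genes. In shHNRNPU#1 the libraries stood at 3559 and 8394 for RPL14, 9061 and 5950 for RPL27, absent and 16811 for RPS12 and 601 and 192 for RPS27L. They stood at 3468 and 1702 for SALL2, 927 and 1865 for PGK1 and 4270 and 2498 for HNRNPF. These share their controls with shHNRNPU#2 and are given side by side with it only.

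**Figure D5:**
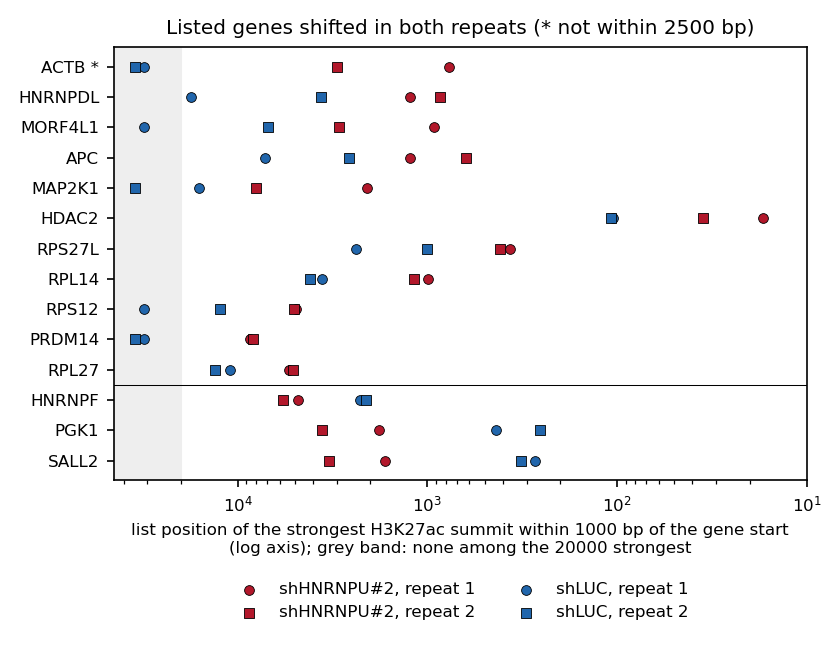
List position of the strongest H3K27ac summit within 1000 bp of a start for the 14 listed genes shifted in both repeats, on a log axis with the strongest positions to the right, in shHNRNPU#2 (red) and shLUC (blue). The 11 genes above the line stood higher and 3 below it stood lower. ACTB, with an asterisk, was not shifted within 2500 bp, where both shLUC libraries stood nearer the top.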

How the data were processed

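CUT&Tag summit lists were analysed, 1 per library, for 2 shHNRNPU#2 and 2 shLUC libraries of H1 cells, with 2 shHNRNPU#1 H3K27ac, 4 H3K4me1, 2 HNRNPU and 2 POLIIS2P shLUC lists beside them. Peaks were taken as called by the authors per library, since each list belongs to 1 library. The submitters' processing notes name cutadapt, Bowtie2, SAMtools, MACS2, deepTools and hg38, without versions. The deposited scores are −log10 significance values from the peak caller, and the lowest was 2 in the H3K27ac lists. The paper listed with the series describes other experiments and gave no method.

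Summits on chromosomes 1 to 22, X and Y were ranked by score, and the first 20000 kept. Summits within 250 bp were chained into sites, and a site took the highest position within 500 bp of its centre, or 20001 when absent. Gene starts came from RefSeq promoter windows (GRCh38.p14) for 15842 genes, and both gene ends were used for 4191. −log2 positions were fitted with limma 3.58.1 (R 4.3.3, trend and robust eBayes, Benjamini-Hochberg adjustment over all features). Tested on simulated data, the site fit recovered 0 of 50 sites at each log2 shift of 2 and 3, and all 50 at each of 4 and 6. The gene fit recovered 0, 17, 50 and 50 of 50 genes at shifts of 2, 3, 4 and 6. In both, the simulated group means carried no error of their own. Real shifts of 4 or 6 may therefore also be missed. Distal sites lay over 5000 bp from any start. HNRNPU sites were 17226 summits of one repeat with one of the other within 250 bp. Groups came from titles, and the antibody of the shLUC libraries from file names. Genes were named by a written rule: HNRNPU, the sites with the widest gap (collapsed within 1000 bp), up to 4 shifted members of each list, otherwise the 3 with the highest mean position, and the 5 strongest genes. One of the sites so chosen is not reported here. Sites called by limma, or shifted in both marks, and EP300, HNRNPA0, SMC3, RPL21 and further pluripotency genes, were added after their values were seen. Members, lists and tests were chosen with earlier results of these data known. Alternatives changed the number of summits, the windows, the antibody assignment, the scale, the fit and each library in turn, and the 2500 bp window was added after seeing the data.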

Additional observations from a re-analysis of the deposited data

Results flagged for a closer look

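At 1 of the 23 sites chosen by the rule the shRNAs moved in opposite directions against the same shLUC libraries. The RBM43 gene-start site shifted higher in shHNRNPU#2 by 3.09 on the log2 scale, while both shHNRNPU#1 libraries, at positions 8703 and 16848, stood below both shLUC libraries (6010 and 7467). LIN28B, short of the limit for a shift, also stood higher in shHNRNPU#2 (813 and 549) and lower in shHNRNPU#1 (9983 and 9378) than in shLUC (3022 and 1066). The same held for the shares of summits on chromosome 16, with a log2 ratio of −0.15 in shHNRNPU#2 over shLUC and both shHNRNPU#1 libraries above shLUC, and on chromosome 8, with a ratio of 0.047 and both shHNRNPU#1 libraries below, at 4.31% and 4.12% against 4.42% in each shLUC library. The difference between the shRNAs was not tested in any of these cases. With 2 libraries per group no value could be examined as an outlier.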

How the results depend on the processing

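Sites called higher by limma numbered 4 and 6 with 40000 and 60000 summits, 2, 3 and 3 within 250, 1000 and 2500 bp, 2 for summits on at least 2 lists and 0 with the replicate block, the percentile scale, the plain fit or the shHNRNPU#1 libraries added. Sites called lower numbered 5 with 60000 summits, 1 within 1000 or 2500 bp, and 0 on the percentile scale, with the plain fit or with shHNRNPU#1 added. Genes called higher numbered 1 within 500 bp, and no gene was called under the other alternatives run except with the antibody from the titles. The replicate numbers did not pair the libraries (correlation of repeat differences 0.004 over sites and 0.0056 over genes), and the block left 2 sites called lower and 0 genes called.

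Leaving out 1 library gave 156 to 6454 sites called higher and 260 to 6757 lower where the lone library was assumed to vary like the other group. Of these calls 91.1% to 92.2% lay at sites absent from both top lists of the group with 2 libraries. Shifted sites then numbered 1333 to 3259 higher and 1568 to 3446 lower, and shifted genes 290 to 640 higher and 656 to 1015 lower. Shifted sites numbered 343, 1418 and 2164 higher and 361, 1462 and 2242 lower with 10000, 40000 and 60000 summits, and shifted genes 80 higher and 184 lower with 10000 and 245 and 439 with 60000. The gene-start share, −1.29 points, ranged from −2.6 to 0.03 without 1 library, the HNRNPU share, −1.27 points, from −2.94 to 0.398, and the overlap difference, 1.78 points, from −0.328 to 3.41.

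With the antibody taken from the titles, 1773 sites and 1921 genes were called higher and 1939 and 193 lower, 4659 sites and 2549 genes were shifted higher and 5293 sites lower, and the gene-start and HNRNPU shares differed by 17.3 and 13.3 points. Under it the log2 shift turned at PPP3CA (−3.58), NOS1AP (−0.18), CHRNB4 (−3.68), ATP5F1A (0.02), LEO1 (0.9), HTD2 (0.28), NBN (0.84), UNC13A (1.32), TTL (1.61) and PLS3 (2.24). Within 1000 and 2500 bp it turned at ORMDL1 (−0.75) and ADA2 (0.2), and within 250 bp at ATP5F1A (0.02) and PLS3 (1.2). Of the 23 sites chosen by the rule, none turned under the other alternatives run. The ACTB and chromosome 21 sites called by limma and the sites named for both marks were not recomputed.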
